A study of Sus scrofa with 42 samples.

Results

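Whole single 1-cell embryos of the pig made by in vitro fertilization (IVF) were compared with 1-cell embryos made by parthenogenetic activation (PA), in which the egg starts to develop without sperm. The comparison takes the 3 libraries labelled IVF 1-cell against the 3 labelled PA 1-cell, which are 6 of the 42 libraries of the series. The whole series holds 8 groups, 1 for each method at the 1-cell, 2-cell, 4-cell and 8-cell stages, with 20 embryos in all, and beyond the 1-cell stage each library is a single blastomere. RNA abundance was given per gene as FPKM, that is, fragments per kilobase of gene scaled to the mapped reads of the library. The question is which transcripts differ at the first stage that the 2 kinds of embryo can be compared, before either has divided.

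Both groups started from cumulus-oocyte complexes of slaughterhouse gilt ovaries matured in vitro. IVF eggs were kept with sperm for 4 h, and their age was counted from the end of that incubation. PA eggs received 2 electric pulses and then 4 h in 6-dimethylaminopurine, a protein kinase inhibitor, with cytochalasin B, which blocks actin polymerization and so the release of the second polar body, and their age was counted from the pulse. Both were collected at 19 h. The absence of sperm, the pulse, the 2 drugs and the different starting point of the clock cannot be told apart in this design. Nothing in the labels ties an embryo to a female, a boar or a day, so the p-values below measure only the spread between these single embryos.

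A pig zygote carries almost no RNA of its own making. It lives on messenger RNA stored in the oocyte, which it translates, deadenylates and degrades on a timetable set going by the rise in calcium at egg activation, and its genome is switched on some divisions later. In a fertilized egg the sperm supplies the activating signal, the paternal genome and the centriole, whereas a parthenote activated in cytochalasin B holds only maternal chromosomes and has no sperm centriole. Oocyte factors such as the linker histone H1FOO and the exchange of protamine for histone remodel the pronuclei.

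The 6 libraries held 10366589 to 15831374 reads on genes, a depth that was recovered from the steps of the FPKM values. Genes listed above 0 numbered 7803, 9386 and 9453 in the 3 IVF embryos and 8301, 7932 and 8342 in the 3 PA embryos (8881 ± 934 against 8192 ± 226, SD, n = 3 each, exact permutation test, two-sided, p = 0.4, adjusted p = 0.8, smallest p possible 0.1). The difference of 689 genes became 1228 without IVF embryo 1. Genes with at least 5 FPKM numbered 2794, 3319 and 3241 in IVF and 2594, 2748 and 2792 in PA, without overlap though 2794 and 2792 nearly met (exact permutation test, two-sided, unadjusted p = 0.1). With at least 1 FPKM the unadjusted p of that test was 0.3. Both thresholds are on the deposited scale. IVF embryo 1 stood apart from the other IVF embryos. The 13 mitochondrial mRNAs held 3.89% of its summed FPKM against 13.5% and 14.5% in IVF embryos 2 and 3, while the PA embryos held 10.8%, 11.3% and 10.2%. The mean share was 10.7% ± 5.89 in IVF and 10.8% ± 0.563 in PA (exact permutation test, two-sided, p = 1). Without IVF embryo 1 the difference was 3.29 percentage points higher in IVF, and both IVF embryos then lay above all 3 PA embryos.

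**Figure D1:**
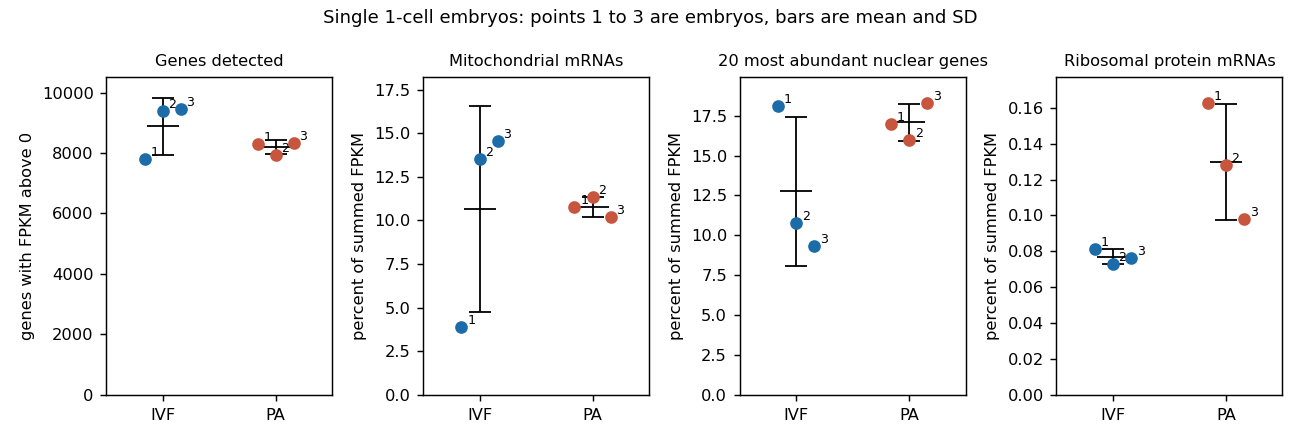
Genes with FPKM above 0 and the percent of summed FPKM held by mitochondrial mRNAs, by the 20 most abundant nuclear genes and by ribosomal protein mRNAs, in each of the 3 IVF and 3 PA 1-cell embryos, with mean and SD. IVF embryo 1 has the lowest mitochondrial share, 3.89%, and the IVF embryos lie at or below 0.0815% of summed FPKM for ribosomal protein mRNAs, under all 3 PA embryos. The separation for ribosomal protein mRNAs rests on RPS3.

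The same embryo differed from the other IVF embryos in the most abundant nuclear genes. The 20 nuclear genes with the highest mean FPKM over the 6 embryos held 18.1% of the summed FPKM of IVF embryo 1. Their share was 10.8% and 9.35% in the other IVF embryos and 16.0% to 18.3% in PA. The high values of IVF embryo 1 entered that mean and so the choice of the set. One annotated copy of 7SK (ENSSSCG00000019556), a noncoding RNA that restrains transcription elongation, was listed at 1610 FPKM in IVF embryo 1 and at 0.109 to 3.05 FPKM in the other 5 embryos. IVF embryos 2 and 3 were the most alike pair, with a Pearson r of 0.908 over log2(FPKM + 1) of the genes tested. The 9 IVF-PA pairs had r between 0.781 and 0.840, and the pairs within PA had r between 0.80 and 0.81, so PA embryos resembled each other no more than they resembled IVF embryos.

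The identity of the cells was checked on marker genes. Of 24 oocyte and zygote markers, 19 were in the table and 17 were tested. Their summed FPKM was 1670, 1963 and 2117 in IVF and 2255, 2472 and 2063 in PA, so both groups were rich in oocyte transcripts such as BTG4, WEE2 and H1FOO. Markers of the cumulus and granulosa cells that surround the oocyte summed to 15.2, 23.6 and 15.2 FPKM in IVF against 15.6, 10.3 and 16.8 FPKM in PA, with 11 of the 15 in the table above 0 in some embryo. The ranges overlapped, and STAR, a mitochondrial cholesterol transporter whose annotation overlaps that of ASH2L on the opposite strand, and VCAN, a matrix proteoglycan, led them. Transcripts known from spermatids and sperm summed to 71.0, 70.3 and 50.1 FPKM in IVF against 53.5, 34.1 and 69.3 FPKM in PA. LDHC, the lactate dehydrogenase of germ cells, supplied most of this sum in both groups. The summed FPKM of the 25 genes placed on the Y chromosome was 0.133, 1.51 and 0.832 in IVF and 2.83, 1.00 and 1.34 in PA. It was thus no higher in embryos from eggs kept with sperm. PA embryos hold only maternal chromosomes, so a sum of this size is background and does not show whether a Y chromosome was present. The sources used here give no check that each collected IVF embryo was fertilized.

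Few genes were called different between the groups. Of 8116 genes tested with limma, 4 were called at a Benjamini-Hochberg adjusted p below 0.05 with at least a 2-fold difference, 0.0493% of those tested. SNRPA, TMEM200C and TPRA1 were higher in PA (0.037% of those tested) and IFNGR1 was higher in IVF (0.0123%). At an unadjusted p below 0.05 there were 332 genes (4.09%), 256 higher in IVF (3.15%) and 76 higher in PA (0.936%). The test had 12 residual degrees of freedom from all 20 embryos, and the median standard error of a 1-cell log2 difference was 0.816. A gene that was not called is therefore not shown to be alike in the 2 groups. The study, which used DESeq2 on read counts, reported a large number of differing genes at every stage. The 2 tests differ in data and model, so their counts are not like for like.

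SNRPA, on chromosome 6 (Sscrofa11.1, 6:48971868-48982369, plus strand), encodes a protein of the U1 small nuclear ribonucleoprotein, which defines 5′ splice sites. It was listed at 0, 0.0398 and 0.0428 FPKM in the IVF embryos and at 10.3, 15.1 and 7.89 FPKM in the PA embryos. All PA embryos lay far above all IVF embryos, and the difference was -3.51 ± 0.49 (SE) on the log2(FPKM + 1) scale (limma, adjusted p = 0.00621). TMEM200C (6:101214902-101216782, plus strand), a transmembrane protein gene, was listed at 0, 0.0543 and 0 FPKM in IVF against 5.24, 8.29 and 10.8 FPKM in PA, a log2 difference of -3.11 ± 0.48 (adjusted p = 0.00911). TPRA1 (13:72655928-72666989, plus strand), which encodes a transmembrane protein related to G protein-coupled receptors, was listed at 0, 0.0363 and 0.0195 FPKM in IVF against 4.18, 3.95 and 1.81 FPKM in PA (log2 difference -2.03 ± 0.31, adjusted p = 0.00911). These 3 transcripts were thus almost absent from the IVF embryos and moderately abundant in the PA embryos.

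IFNGR1 (1:27036892-27061093, plus strand), the ligand-binding chain of the interferon gamma receptor, ran the other way. It was listed at 2.08, 2.34 and 1.08 FPKM in IVF and at 0 in all 3 PA embryos, a log2 difference of 1.47 ± 0.26 (limma, adjusted p = 0.0329). No other annotated gene in the table overlapped any of the 4. Their calls rested on the pooled spread and on single embryos. With only the 6 1-cell embryos in the fit no gene was called by limma (951 at an unadjusted p below 0.05), and without IVF embryo 2 none was called either (260 at an unadjusted p below 0.05), whereas 10 were called without IVF embryo 1 and 7 without IVF embryo 3. IFNGR1 was called in 8 of 20 alternative analyses that could be fitted, SNRPA in 18 of 21, TMEM200C in 17 of 21 and TPRA1 in 13 of 20. The IFNGR1 difference fell below 2-fold with median ratio scaling (0.58, limma, adjusted p = 0.300), quantile normalization (0.81, adjusted p = 0.867) and a pseudocount of 5 (0.45, adjusted p = 0.0572). The TPRA1 difference was -1.11 with median ratio scaling (adjusted p = 0.194), -1.74 with quantile normalization (adjusted p = 0.104) and -0.72 with a pseudocount of 5 (adjusted p = 0.01001).

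**Figure D2:**
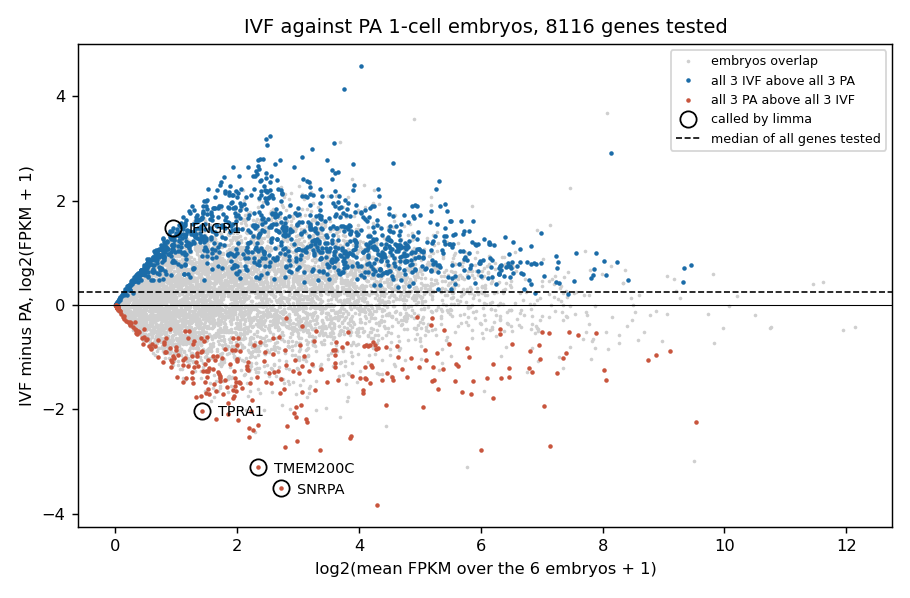
Difference between IVF and PA 1-cell embryos on the log2(FPKM + 1) scale against the log2 of the mean FPKM plus 1, one point for each of the 8116 genes tested, with the 4 called genes circled. Points where all 3 embryos of a group lie above all 3 of the other are coloured, and the dashed line marks the median of all genes, 0.24, which falls to 0.00 with median ratio scaling.

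A shift over all genes lay under these comparisons. The median log2 difference was 0.24 in favour of IVF, and 64.3% of the genes tested had a positive difference. The shift was 0.15 after nuclear genes were rescaled to the same total, and 0.00 after median ratio scaling or quantile normalization. With FPKM as deposited, the 3 IVF embryos lay above the 3 PA embryos at 1147 genes (14.1% of those tested) and below them at 304 (3.75%), so 79.0% of the 1451 genes without overlap were higher in IVF. With the 6 embryos scaled by their median ratio the same counts were 637 and 615, or 50.9% higher in IVF. The excess of genes higher in IVF on the deposited scale was not seen with this scaling. Median ratio scaling and quantile normalization bring the all-gene shift to about 0 by construction, so the near even split is no separate result. Without IVF embryo 1 the all-gene median was 0.36, and without IVF embryo 2 it was 0.16. Differences below are on the deposited scale and are read against 0.24. After median ratio scaling or quantile normalization 2 genes were called, both higher in PA.

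The shift varied with abundance. Genes with a mean of 10 to 100 FPKM had a median difference of 0.46, and 23.1% of them were higher in all IVF than in all PA embryos. Among the 170 genes above 100 FPKM the median was 0.02, and 19.4% were higher in all IVF and 12.4% in all PA embryos. The most abundant stored transcripts were shared. ENSSSCG00000000296, which has no symbol in the table, led both groups with 5958, 3033 and 2818 FPKM in IVF against 4008, 4385 and 7056 FPKM in PA. PCNA, the sliding clamp of DNA polymerases, followed with 2952, 1012 and 914 FPKM in IVF against 1809, 1802 and 1984 FPKM in PA, and IVF embryo 1 alone held the high IVF value, without which the log2 difference moved from -0.41 to -0.95. DNMT1, the maintenance DNA methyltransferase, stood at 1511, 1412 and 1075 FPKM in IVF against 2034, 1591 and 1079 FPKM in PA, and the mRNA-binding IGF2BP3 at 1168, 652 and 607 against 1125, 841 and 707 FPKM. The groups overlapped at all 4 genes, and 13 of the 20 most abundant nuclear genes were the same in both groups.

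Below the 4 called genes, 20 more were taken for description by rank: genes without overlap between the groups and with a group mean of at least 10 FPKM, in order of their limma p. None passed the adjusted threshold, and because the lack of overlap chose them it is no result about them. On the IVF side, GTF3C6, a subunit of the RNA polymerase III factor TFIIIC, was listed at 40.5, 15.2 and 18.1 FPKM in IVF and at 0, 1.40 and 0 in PA (log2 difference 4.13 ± 1.15, adjusted p = 0.646). MDM1, a microtubule-binding protein of centrioles, stood at 42.1, 35.3 and 42.1 FPKM in IVF against 5.98, 5.42 and 4.33 FPKM in PA (2.71 ± 0.88, adjusted p = 0.843). The IVF values of both genes were at least several times the highest PA value.

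IDH1, the cytosolic NADP-dependent isocitrate dehydrogenase, was listed at 14.3, 13.1 and 14.5 FPKM in IVF against 0.570, 5.05 and 3.45 FPKM in PA, and PTPN12, a protein tyrosine phosphatase, at 5.14, 25.4 and 16.8 against 2.09, 0.0291 and 0.855 FPKM. AKIRIN1, a nuclear protein of the akirin family, stood at 10.9, 27 and 18.4 FPKM in IVF against 4.17, 3.45 and 0.860 FPKM in PA. ZDHHC13, a palmitoyltransferase, ZNF140, a zinc finger protein, and ICA1L, related to an islet cell autoantigen, completed the group of genes with no overlapping neighbour, with log2 differences of 2.64, 2.14 and 1.91. SVIP (2.79) and ANKMY2 (2.71) overlap GAS2 and BZW2 on the opposite strand, and since strand use in counting is not given in the sources used here their values are uncertain. The adjusted p of these 8 genes lay between 0.763 and 0.857.

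The IVF side also held the precursor of a microRNA. The gene ssc-mir-424 (ENSSSCG00000034375; X:110387902-110387981, minus strand, Sscrofa11.1) spans 80 bases and overlaps no other gene in the table. miR-424 belongs to the miR-15/16 family, whose members share a seed that pairs with AGCAGCA-complementary sites in target mRNAs. The annotated gene, read from the RefSeq genome of the same build on the minus strand, is printed here because it was listed above 0 in every IVF embryo and at 0 in every PA embryo. Capitals mark AGCAGCA, searched on both strands and found 1 time in the gene's own strand, from base 14.
ssc-mir-424: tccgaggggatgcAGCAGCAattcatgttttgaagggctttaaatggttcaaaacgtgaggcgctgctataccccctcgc
Its FPKM was 1.52, 2.95 and 26.3 in IVF embryos 1, 2 and 3, resting on about 3, 7 and 58 reads, so IVF embryo 3 supplied most of them. The log2 difference was 2.70 ± 0.57 (limma, adjusted p = 0.111). Reads of a library made from long RNA count the precursor region and do not measure the mature microRNA.

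On the PA side, H1FOO, the linker histone of the oocyte and early embryo, stood at 114, 152 and 191 FPKM in IVF against 330, 517 and 259 FPKM in PA (log2 difference -1.24 ± 0.44, adjusted p = 0.857). KPNA7, the importin alpha of the oocyte, which carries nuclear proteins through the pore, stood at 84.0, 162 and 199 FPKM in IVF against 340, 468 and 337 FPKM in PA (-1.43 ± 0.51, adjusted p = 0.857). Both are maternal transcripts, and at both IVF embryo 1 was lowest.

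CDK2AP2, a CDK2-associated protein, was listed at 12.3, 16.5 and 13.4 FPKM in IVF against 73.1, 76.8 and 187 FPKM in PA (-2.78 ± 0.86, adjusted p = 0.843). KIF23 encodes the kinesin of the central spindle in cytokinesis, and more than 1 annotated gene bears this symbol. The entry ENSSSCG00000037092 stood at 2.73, 3.55 and 3.25 FPKM in IVF against 26.4, 31.8 and 13.7 FPKM in PA (-2.50 ± 0.92, adjusted p = 0.914). The IVF embryos were close to each other at both genes. PKIG, an inhibitor of protein kinase A, TMEM252, a transmembrane protein gene, and COPS8, a subunit of the COP9 signalosome, had log2 differences of -2.77, -2.73 and -2.54, and COPS8 ranged from 0.0240 FPKM in IVF embryo 1 to 11.4 FPKM in IVF embryo 2, with a difference of -1.60 without embryo 1.

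Some overlapping genes were higher in PA at both members of the pair. ENSSSCG00000037567 (3:10038386-10039549, plus strand) lies over the small heat shock protein gene HSPB1 on the minus strand. The first was listed at 0, 0 and 6.56 FPKM in IVF against 10.4, 7.23 and 17.3 FPKM in PA, and HSPB1 at 0.126, 0.139 and 2.51 against 7.51, 5.26 and 8.96 FPKM. CERS1, a ceramide synthase, stood at 11.0, 4.65 and 5.30 FPKM in IVF against 41.7, 17.0 and 15.2 FPKM in PA, and UPF1, the helicase of nonsense-mediated decay on the opposite strand, at 12.1, 6.90 and 5.43 against 42.9, 18.6 and 16.7 FPKM. Within each pair the values followed each other across the 6 embryos, and which gene the reads came from cannot be told apart.

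**Figure D3:**
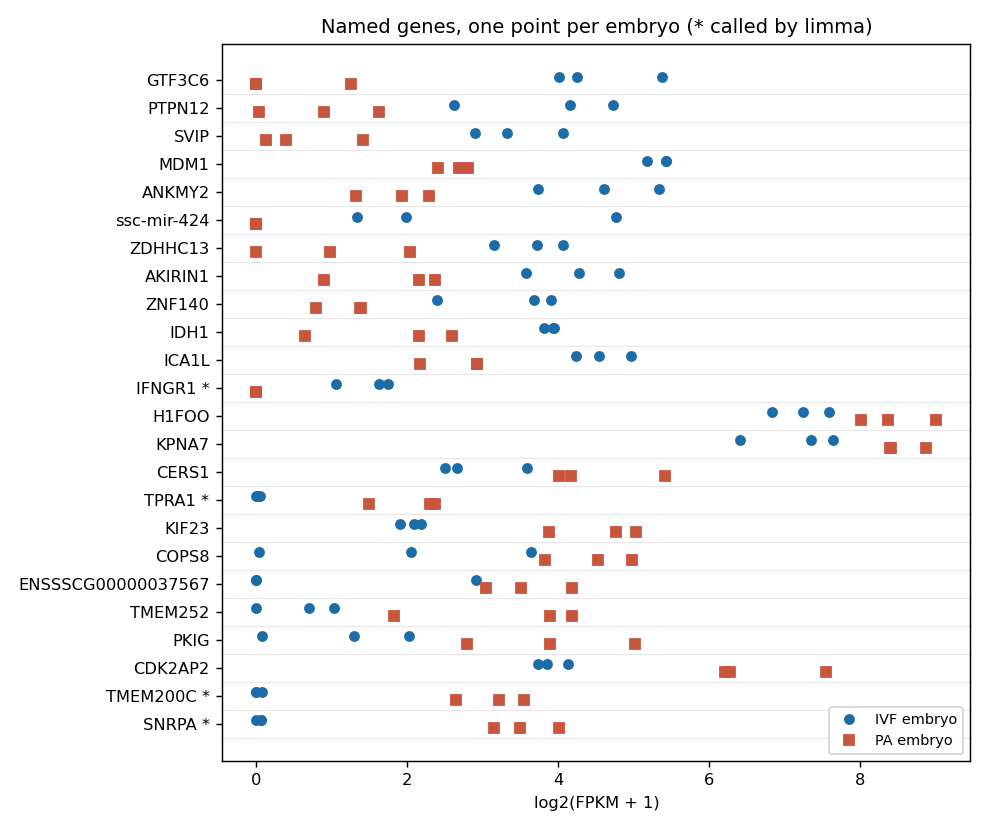
Level of the 24 named genes, log2(FPKM + 1), with 1 point for each of the 3 IVF and 3 PA 1-cell embryos, ordered by the difference between groups. Circles and squares do not mix at any gene, which the choice of genes fixed, and the 4 genes with an asterisk were called by limma.

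The genes of egg activation and early development were then taken as 25 lists. No member of any list was called, against a background of 0.0493%. Each list is described by its count of members without overlap, to be read against 14.1% for IVF higher and 3.75% for PA higher, and by its median, to be read against 0.24. These shares hold on the deposited scale over genes of all levels. By class of mean FPKM they ran from 9.17% to 23.1% for IVF higher and from 2.90% to 12.4% for PA higher. The list counts were not repeated with another scaling or matched for level. Oocyte and zygote markers had the lowest median of the lists drawn in the plot of list members, -0.25, and it remained below that of all genes under each of the 3 other scalings, by 0.51 to 0.61. Of the 17 tested, 4 were higher in all PA embryos (23.5%) and 1, BTG4, in all IVF embryos. Beside H1FOO and KPNA7, the zona pellucida gene ZP4 was listed at 76.2, 72.4 and 61.0 FPKM in IVF against 347, 109 and 79.0 FPKM in PA. BTG4, which brings the CCR4-NOT deadenylase to maternal mRNA, stood at 675, 762 and 754 FPKM in IVF against 490, 522 and 602 FPKM in PA (0.44 ± 0.44, adjusted p = 1).

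The calcium rise of activation is relayed by receptors, pumps and calmodulin-dependent enzymes. Of 20 such genes tested, 15 had a positive difference, 3 were higher in all IVF embryos (15.0%) and 0 in all PA embryos, and the median was 0.46. It was 0.22 above that of all genes, and 0.08 to 0.19 above under the other scalings. On leaving out 1 embryo it ran from 0.29 to 0.76, and it was highest without IVF embryo 1, when that of all genes was 0.36. PPP3R1, the regulatory subunit of calcineurin, was listed at 36.0, 51.0 and 47.3 FPKM in IVF against 8.26, 13.4 and 12.7 FPKM in PA (1.89 ± 0.83, adjusted p = 1), and it overlaps PNO1 on the opposite strand. Among 14 genes of fertilization and cortical granule release tested, 3 were higher in all PA embryos and none in all IVF embryos, namely ZP4, ASTL and UCHL1. ASTL, the ovastacin protease that hardens the zona after fertilization, stood at 0.345, 0.943 and 0.799 FPKM in IVF against 1.36, 13 and 2.18 FPKM in PA.

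Activation also ends meiosis. Of 40 meiotic exit and M-phase regulators tested, 8 (20%) were higher in all IVF embryos and 1 (2.50%) in all PA embryos. Their median was 0.32 and was within 0.08 of that of all genes under every scaling. On leaving out 1 embryo it ran from 0.24 to 0.48, the highest without IVF embryo 1. BUB1, a kinase of the spindle checkpoint, was listed at 10.6, 5.91 and 5.57 FPKM in IVF against 0.289, 0.456 and 0.670 FPKM in PA (2.47 ± 0.80, adjusted p = 0.843). TTK, the checkpoint kinase upstream of it, stood at 49.3, 87.6 and 47.9 FPKM against 3.49, 31.2 and 34.8 FPKM, whereas BUB3, which binds BUB1, overlapped at 529, 351 and 386 against 219, 520 and 806 FPKM. WEE2, the oocyte kinase that holds back CDK1, was listed at 299, 452 and 451 FPKM in IVF against 191, 325 and 246 FPKM in PA.

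Stored mRNA is cleared by deadenylases, decapping enzymes and exonucleases. Of 40 such genes tested, 12 (30.0%) were higher in all IVF embryos and 2 (5%) in all PA embryos. The median was 0.36, 0.11 above that of all genes, and 0.05 above it after median ratio scaling. YTHDC2, an RNA helicase that binds N6-methyladenosine, was listed at 8.34, 5.36 and 3.88 FPKM in IVF against 0.561, 0 and 0.814 FPKM in PA (2.23 ± 0.78, adjusted p = 0.857), and the decapping enzyme DCP2 at 37.6, 65.1 and 59.5 against 19.9, 20.9 and 37.0 FPKM. Of 46 genes for storage and translation of maternal mRNA tested, 1 (2.17%) was higher in all IVF embryos and none in all PA embryos. It was FXR1, an RNA-binding protein, at 27.3, 28.3 and 24.7 FPKM in IVF against 13.3, 10.5 and 18.6 FPKM in PA (0.91 ± 0.63, adjusted p = 1). The list's median was 0.14, and 0.31 without IVF embryo 1.

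Genes tied to what the sperm brings were examined next. Centriole and centrosome genes had the second highest median of the lists, 0.63, which was 0.39 above that of all genes and 0.18 to 0.36 above it under the other scalings. Without IVF embryo 1 it was 0.91. Of 34 tested, 27 had a positive difference, 7 (20.6%) were higher in all IVF embryos and 1 (2.94%) in all PA embryos. CEP120, a daughter centriole protein, was listed at 6.2, 3.22 and 15.1 FPKM in IVF against 0.0705, 0.978 and 1.41 FPKM in PA (2.19 ± 1.03, adjusted p = 1). Of the 34 sperm and spermatid transcripts listed, 14 were in the table and 5 were tested. Of these, 4 had a positive difference, 2 (40.0%) were higher in all IVF embryos and 0 in all PA embryos, with a median of 0.14 that was -0.01 with median ratio scaling and 0.39 without IVF embryo 1. ODF2, a protein of the outer dense fibres and of centrioles, stood at 2.65, 1.33 and 1.79 FPKM in IVF against 0.0150, 0.710 and 0.186 FPKM in PA, CLGN, a chaperone of sperm surface proteins, at 14.8, 20.9 and 21.8 against 5.39, 4.99 and 8.06 FPKM, and ACRBP, an acrosin-binding protein, at 0.188, 0.0492 and 0.679 against 9.77, 0.0713 and 4.85 FPKM. LDHC overlapped at 53.3, 47.0 and 23.4 against 37.4, 27.5 and 54.7 FPKM, and its log2 difference of 0.02 turned to -0.38 with median ratio scaling. ACRBP, the member with a negative difference, overlapped between the groups.

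A parthenote has no paternal copy of imprinted genes. Of 19 genes listed as expressed from the paternal copy, 13 were in the table and 9 were tested. Whether each listed gene is imprinted in the pig or at this stage was not tested. Of these, 8 had a positive difference and the median, 0.70, was the highest of the lists and stayed 0.26 to 0.52 above that of all genes under each scaling, but no gene was higher in all IVF embryos. DIRAS3, a small GTPase, was listed at 3.32, 3.03 and 0 FPKM in IVF against 0.349, 0 and 0 FPKM in PA (1.23 ± 0.56, adjusted p = 1), and ZIM2, a zinc finger gene, at 25.0, 23.4 and 14.9 against 13.6, 8.40 and 16.4 FPKM. The summed FPKM of the list was 56.1 to 77.3 in IVF and 33.0 to 45.6 in PA. At the 2-cell stage the list's median was 0.0053, beside 0.25 over all genes. From which parental copy the reads came was not tested. Of 16 genes listed as expressed from the maternal copy, 3 were tested, of which 2 had a positive difference and the median was 0.02. NAP1L4, a histone chaperone, overlapped at 0.441, 0.854 and 0.589 FPKM in IVF against 0.0107, 0.617 and 0.861 FPKM in PA, and IGF2R, a receptor for IGF2, lay at or below 0.101 FPKM in every embryo. The third, UBE3A, a ubiquitin ligase whose imprint is known from neurons, stood at 0.0554, 3.34 and 2.52 FPKM in IVF against 6.0, 5.10 and 4.03 FPKM in PA, a log2 difference of -1.24 that was -0.62 without IVF embryo 1.

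**Figure D4:**
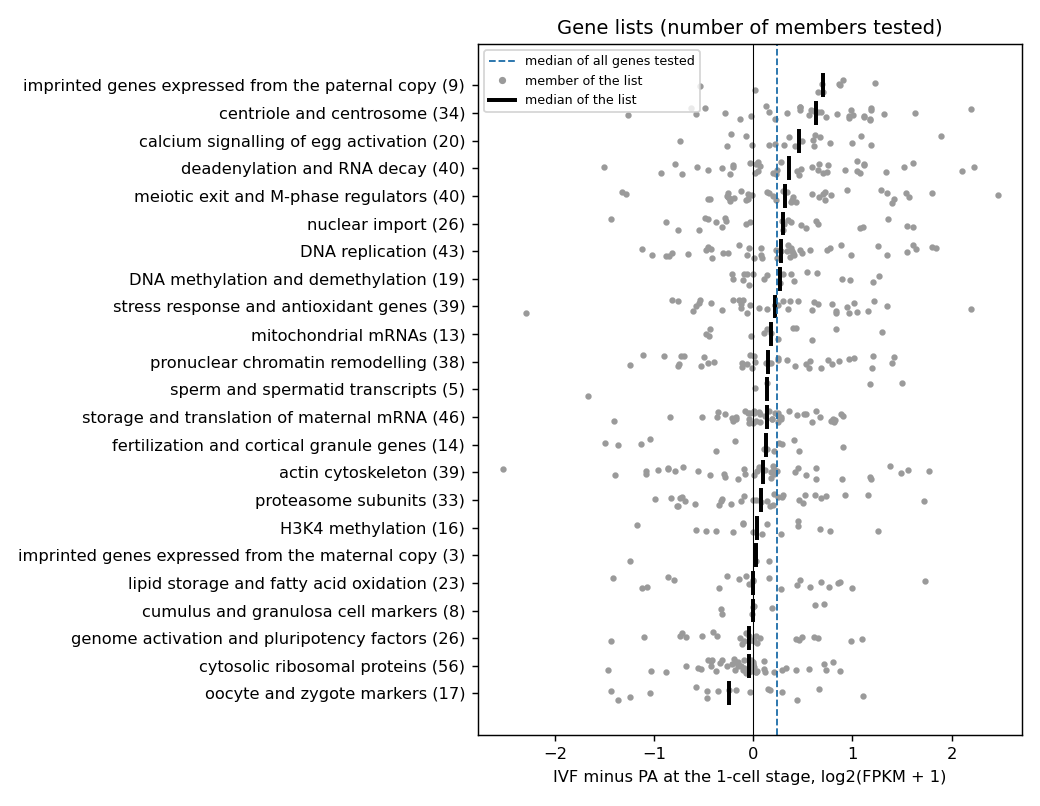
Difference between IVF and PA 1-cell embryos, log2(FPKM + 1), for every member tested of 23 gene lists, with the median of each list as a bar and the median of all genes, 0.24, as a dashed line. Medians run from -0.25 for oocyte and zygote markers to 0.70 for imprinted genes of the paternal copy, and several between 0 and 0.30 fall below 0 once the all-gene shift is scaled out.

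In the pronuclei, histone chaperones and chromatin regulators repackage the DNA. Of 38 such genes tested, 5 (13.2%) were higher in all IVF embryos and 2 (5.26%) in all PA embryos, with a median of 0.15 that fell to -0.17 with median ratio scaling. The difference for SRPK1, a kinase known to act on protamine, was -0.73 ± 0.59 with overlapping embryos, and EZH1, a Polycomb methyltransferase, stood at 4.37, 2.06 and 3.96 FPKM in IVF against 0.888, 0.0827 and 1.19 FPKM in PA. Of 26 nuclear import genes tested, 5 (19.2%) were higher in all IVF embryos and 2 (7.69%) in all PA embryos. Beside KPNA7, TNPO1, the import receptor transportin, stood at 534, 310 and 335 FPKM in IVF against 777, 664 and 668 FPKM in PA, while KPNA3, another importin alpha, stood at 50.4, 74.6 and 71.6 FPKM in IVF against 15.1, 15.1 and 36.8 FPKM in PA (1.61 ± 0.62, adjusted p = 0.975). The summed FPKM of the nuclear import genes was 764 to 860 in IVF and 1181 to 1310 in PA, a sum set by the abundant KPNA7 and TNPO1, whereas 14 of 26 members had a positive difference.

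Of 19 DNA methylation genes tested, 3 (15.8%) were higher in all IVF embryos and 1 (5.26%) in all PA embryos, and of 43 replication genes 5 (11.6%) and 0. The medians were 0.27 and 0.28, and turned to -0.03 and -0.06 with median ratio scaling. SMCHD1, a chromosomal ATPase needed for silencing, was listed at 30.6, 53.9 and 41.0 FPKM in IVF against 26.7, 9.02 and 17.9 FPKM in PA, and PRIM1, the catalytic primase, at 3.97, 10.3 and 6.29 against 1.51, 0.121 and 3.79 FPKM. For H3K4 methylation, SETD1A and KMT2C, both H3K4 methyltransferases, lay in opposite directions. SETD1A stood at 0.572, 0.610 and 0.353 FPKM in IVF against 1.16, 4.29 and 2.43 FPKM in PA, and KMT2C at 10.9, 13.8 and 14.0 against 3.81, 4.00 and 7.10 FPKM. They were the 2 of 16 members without overlap, and the list's median was 0.04. On leaving out 1 embryo that median ran from -0.06 to 0.23, the highest without IVF embryo 1.

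Genes of genome activation and pluripotency had a median of -0.04 over 26 tested, with 4 (15.4%) higher in all PA embryos and 1 (3.85%) in all IVF embryos. EYA1, a transcription cofactor and phosphatase, was listed at 26.2, 12.5 and 20.6 FPKM in IVF against 65.1, 47.5 and 48.5 FPKM in PA (-1.44 ± 0.85, adjusted p = 1). YAP1, the effector of the Hippo pathway that is present in oocytes, stood at 318, 256 and 285 against 630, 511 and 297 FPKM, and DPPA5, an RNA-binding pluripotency marker, at 0.463, 0.931 and 0.353 against 2.61, 3.29 and 1.43 FPKM.

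Housekeeping groups were compared for depth and quality. Of 56 cytosolic ribosomal protein genes tested, 35 had a negative and 16 a positive difference, with a median of -0.04. Their summed FPKM was 93.3 to 106 in IVF and 120 to 174 in PA, without overlap (exact permutation test, two-sided, unadjusted p = 0.1 for their share, the smallest possible). RPS3 was the main contributor with 19, 26.9 and 26.6 against 71.2, 84.4 and 51.1 FPKM, and without it the groups overlapped. The share of summed FPKM was under 0.2% in every embryo. Of 33 proteasome subunits tested, 5 (15.2%) were higher in all IVF embryos and 1 (3.03%) in all PA embryos, and their median of 0.07 turned to -0.08 with median ratio scaling. PSMA1 stood at 22.6, 7.72 and 9.28 against 3.32, 4.51 and 1.47 FPKM.

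PA eggs had been held in an actin inhibitor, whose effect was not tested. Of 39 actin cytoskeleton genes tested, 9 (23.1%) were higher in all IVF embryos and 5 (12.8%) in all PA embryos. The median of 0.09 turned to -0.19 with median ratio scaling. On leaving out 1 embryo it ran from -0.0052 to 0.24, the highest without IVF embryo 1. CFL1, cofilin, which severs filaments, was listed at 0.418, 0.0736 and 0.309 FPKM in IVF against 5.08, 11.7 and 3.95 FPKM in PA (-2.53 ± 1.01, adjusted p = 1), and PFN1, profilin, which binds actin monomers, at 0.0390, 0.248 and 0.347 against 2.19, 1.71 and 0.927 FPKM. Both overlap genes on the opposite strand, MUS81 and RNF167, and PFN1 also overlaps SLC25A11 on its own strand. The 2 most abundant members of the list, DSTN and ACTR2, overlapped between the groups and had positive differences. Over the list, 23 members were positive and 16 negative. Of 39 stress response and antioxidant genes tested, 5 were higher in all IVF and 4 in all PA embryos. NFE2L2, the transcription factor of the antioxidant response, stood at 16.5, 18 and 20 FPKM in IVF against 0.837, 8.25 and 3.32 FPKM in PA (2.19 ± 0.86, adjusted p = 0.997), opposite to HSPB1. Of 23 lipid genes tested, 3 (13%) were higher in all IVF embryos and 1 (4.35%) in all PA embryos. ACSL3, an acyl-CoA ligase of lipid droplets, stood at 197, 329 and 334 FPKM in IVF against 168, 168 and 185 FPKM in PA, and ACSL1, its relative, at 2.83, 6.58 and 1.61 against 0.523, 0.319 and 0.0279 FPKM. PLIN2, a coat protein of lipid droplets, was the member higher in all PA embryos, at 1.16, 1.78 and 1.90 against 4.09, 5.63 and 2.09 FPKM, and was named, like IGF2R, after its values were seen. CPT2, a carnitine palmitoyltransferase of mitochondria, overlapped at 0.0123, 0.874 and 0 against 2.64, 0 and 4.40 FPKM. The list's median was 0.00.

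Genes that the study had singled out for IVF and PA embryos over all stages were chosen on these samples, so their values at the 1-cell stage are no independent evidence of a direction. Of the 20 tested, none was called, 7 were higher in all PA embryos and 0 in all IVF embryos. FAM151B was listed at 65.8, 561 and 362 FPKM in IVF against 1335, 890 and 1215 FPKM in PA (-2.24 ± 0.93, adjusted p = 1, and -1.32 without IVF embryo 1), SEPTIN11, a septin of the cortical cytoskeleton, at 291, 277 and 239 against 455, 460 and 832 FPKM, and ZNF449, a zinc finger gene, at 11.4, 22.6 and 23.7 against 51.6, 52.3 and 53.5 FPKM. The annotation of ZNF449 overlaps CT55 on the opposite strand.

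The 2-cell embryos of the same study, collected at 27 h, were read at the 24 named genes. Their difference between IVF and PA did not enter the choice of genes, but their spread entered the limma fit that ranked them and their levels entered the filter, so the reading is not independent of the choice. Each embryo's value was the mean of its 2 blastomeres. Of the 12 genes higher in IVF at the 1-cell stage, 5 had a positive difference at the 2-cell stage, with a median of 0.00. Of the 12 higher in PA, 6 had a negative difference, with a median of -0.01. Over all genes tested, 68.9% of those positive and 42.9% of those negative at the 1-cell stage kept their sign at the 2-cell stage. The shares for the named genes were 41.7% for those higher in IVF and 50.0% for those higher in PA, each over 12 genes, and their difference from all genes was not tested.

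SNRPA, TPRA1 and IFNGR1 were near 0 in both kinds of 2-cell embryo, and these embryos entered the pooled spread on which their calls rested. SNRPA was listed at 0.0224, 0 and 0 FPKM in IVF against 0, 0 and 0.137 FPKM in PA, and IFNGR1 and ssc-mir-424 at 0 in all 6. TMEM200C was listed at 2.96, 0.0766 and 0 FPKM in IVF and at 0 in PA. The contrast between stages was 3.81 for TMEM200C and 3.46 for SNRPA (limma interaction, adjusted p = 0.173 and 0.309), and over all genes no interaction was called (227 at an unadjusted p below 0.05, 2.80% of those tested).

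A few loci stood out among the 24. AKIRIN1 kept its direction, with 20.1, 11.8 and 26.8 FPKM in IVF 2-cell embryos and 0.886, 3.96 and 2.77 FPKM in PA 2-cell embryos (2.58 ± 0.80, adjusted p = 0.573), and no embryo overlapped at either stage. ENSSSCG00000037567 also kept its direction, at 0.255, 3.07 and 4.61 against 23.4, 33.4 and 22.4 FPKM (-3.14 ± 0.84, adjusted p = 0.414), as did HSPB1 on the opposite strand (-2.74 ± 0.73, adjusted p = 0.414). MDM1, IDH1 and COPS8 had the opposite sign without overlap. MDM1 stood at 0.0265, 13.1 and 3.38 FPKM in IVF against 36.9, 20.4 and 15.1 FPKM in PA (-2.56 ± 0.88, adjusted p = 0.744). IDH1 stood at 3.99, 2.06 and 1.88 FPKM in IVF against 8.22, 4.80 and 5.46 FPKM in PA (-0.99 ± 0.67, adjusted p = 0.954), and COPS8 at 9.11, 1.66 and 8.47 against 1.08, 1.08 and 0.0261 FPKM (1.95 ± 0.98, adjusted p = 0.910). The contrast between stages had an unadjusted p of 0.000425 at MDM1, 0.00429 at IDH1 and 0.00418 at COPS8 (limma interaction, adjusted p = 0.848, 1 and 1). No gene was called between IVF and PA at the 2-cell stage by limma (441 at an unadjusted p below 0.05), and these loci were singled out after their values were seen.

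**Figure D5:**
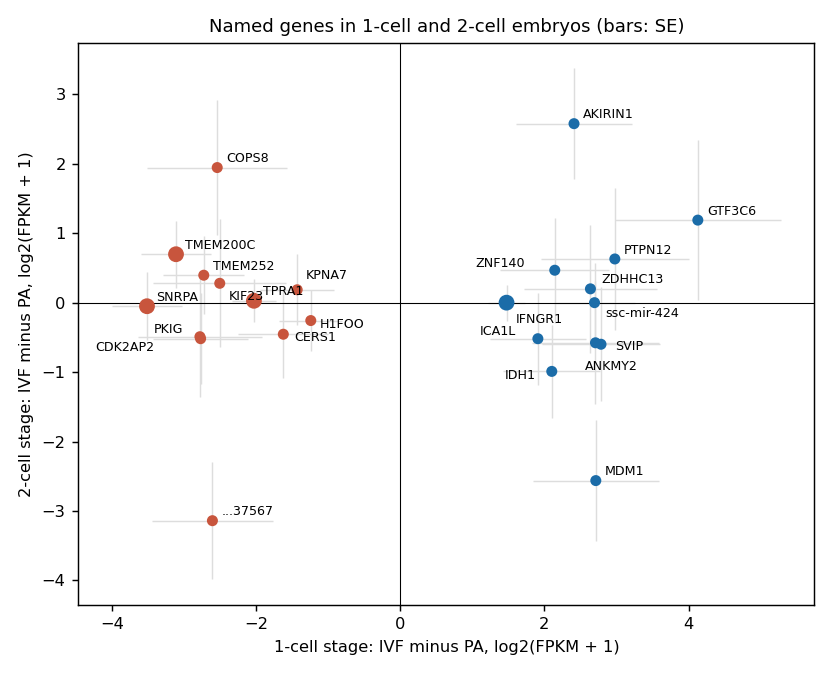
Difference between IVF and PA on the log2(FPKM + 1) scale for the 24 named genes, in 1-cell embryos on the horizontal axis and in 2-cell embryos on the vertical axis, with standard errors, blue for genes higher in IVF and red for genes higher in PA at the 1-cell stage, and large points for the 4 called genes. Most points lie near 0 on the vertical axis, and AKIRIN1 and ENSSSCG00000037567 (labelled by its last digits) kept the direction they had at the 1-cell stage while MDM1, IDH1 and COPS8 did not.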

How the data were processed

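Single 1-cell pig embryos were sequenced on an Illumina instrument after whole-transcriptome amplification as the paper's methods describe, whereas the labels describe a bulk extraction. According to the methods and the submitters' processing notes, reads were mapped to Sscrofa11.1 with HISAT2 and counted per gene, and the authors deposited the result as FPKM per gene and cell, not scaled between cells. Tool versions, annotation release and strand setting are not given in the sources used here. Overlaps are not named for every gene printed, and PCNA, BTG4, IGF2BP3 and LDHC also overlap annotated genes on the opposite strand. All 15351 genes of the table were read, and 659 were 0 in every cell. Symbols came from the table and, for 817 of the 2799 genes listed by ID, from a reference gene table. Read depth was recovered from the FPKM steps. All 7862 genes above 0 in at least 4 of the 6 embryos came out whole within 0.01, whereas for genes above 0 in 1 or 2 embryos a whole result is fixed or nearly fixed by the method and their reads can be too few. The FPKM of 1 read times gene length was the same within 0.01 of its value at 13 of 13 mitochondrial mRNAs and 24 of 24 small RNA genes above 0 in at least 3 embryos.

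FPKM was transformed as log2(FPKM + 1), blastomeres were averaged per embryo, and limma (3.58.1; R 4.3.3) was fitted with a mean-variance trend over all 8 groups to the 8116 genes with at least 1 FPKM in 3 cells. Fold differences understate the change of low genes on this scale. Calls needed a Benjamini-Hochberg adjusted p below 0.05 and a 2-fold difference. Values of whole embryos were tested by exact permutation with Python 3.11.15. The number of genes above 0 and the mitochondrial share were adjusted over these 2 measures. The numbers of genes at higher thresholds and the ribosomal share were not adjusted. The limma step was tested on simulated data. No count test was run, since FPKM are not counts.

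Named genes were the called genes, then up to 12 per direction by p without overlap and with a group mean of 10 FPKM, the 2 most abundant and the 2 lowest p of each list, the leading nuclear genes and genes the study singled out, and values are printed for 76 of them. Members and gene lists were chosen with earlier results of these data known. Alternatives changed the pseudocount, filter, scaling, samples in the fit, replicate block, averaging, trend and each embryo left out.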

Additional observations from a re-analysis of the deposited data

How the results depend on the processing

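Over 21 alternatives the number of genes called at the 1-cell stage, 4, ranged from 0 to 13. It was 2 with a pseudocount of 5, 2 with FPKM of at least 5 in 3 cells, 2 without the mean-variance trend, 2 with median ratio scaling, 2 with quantile normalization, 12 with blastomere values averaged as log2 and 13 with no filter on low FPKM. It was 0 with only the 6 1-cell embryos in the limma fit (951 genes at an unadjusted p below 0.05) and 0 with the replicate number as a block in that fit (772). The numbers do not pair the embryos, since the deviations of same-numbered embryos correlated between 0.008 and 0.017, so the block says nothing on the strength of an effect. Leaving out 1 embryo gave 0 (without IVF embryo 2) to 10 (without IVF embryo 1). No interaction with stage was called in the main test, 5 with no filter, 2 with blastomeres averaged as log2, 1 with quantile normalization, and 0 to 6 on leaving out 1 embryo (6 without PA embryo 3). The difference in genes detected, chosen in part after the data were seen, was 731 with reads thinned to 1e+07 and 403 to 1228 on leaving out 1 embryo. The mitochondrial difference ran from -2.05 to 3.29 percentage points on leaving out 1 embryo. Of the 76 named genes, 5 changed sign. LDHC was at -0.38 with median ratio scaling, -0.34 with quantile normalization, -0.14 with nuclear genes rescaled, and -0.21 to 0.38 on leaving out 1 embryo, which moved BUB3 from -0.64 to 0.30, IGF2BP3 from -0.47 to 0.0048 and DNMT1 from -0.45 to 0.0097. NAP1L4 was at -0.0050 with median ratio scaling, -0.096 with quantile normalization and -0.10 to 0.34 on leaving out 1 embryo. The precursor ssc-mir-424 was called in 4 alternatives, TMEM252 in 2 and GTF3C6 in 1.

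List medians followed the all-gene median, and 73 of 525 alternatives moved one by more than the spread between embryos. With median ratio scaling they were -0.61 for oocyte markers, -0.21 for fertilization genes, 0.017 for M-phase regulators, 0.051 for RNA decay, -0.050 for mRNA storage, -0.17 for pronuclear chromatin, -0.029 for DNA methylation, -0.057 for replication, 0.18 for centrioles, -0.19 for actin, -0.021 for stress genes, 0.26 for paternally expressed imprinted genes, -0.083 for the proteasome, -0.10 for nuclear import and -0.53 for the genes the study singled out. With quantile normalization they were -0.51 for oocyte markers, -0.17 for sperm transcripts, -0.19 for fertilization genes, 0.083 for calcium signalling, 0.051 for M-phase regulators, 0.055 for RNA decay, -0.062 for mRNA storage, -0.14 for pronuclear chromatin, -0.037 for DNA methylation, -0.19 for H3K4 methylation, -0.10 for genome activation, 0.0047 for replication, 0.26 for centrioles, -0.20 for actin, -0.053 for stress genes, -0.13 for ribosomal proteins, -0.16 for the proteasome and -0.057 for nuclear import. Rescaled nuclear genes gave -0.41 for oocyte markers, 0.011 for pronuclear chromatin and -0.077 for ribosomal proteins. A pseudocount of 0.1 gave 0.21 for cumulus markers, 0.53 for sperm transcripts, -0.10 for genome activation, 1.10 for centrioles, 0.18 for maternally expressed imprinted genes and -0.20 for ribosomal proteins. A pseudocount of 5 gave 0.19 for RNA decay, 0.11 for DNA methylation, 0.11 for replication, 0.30 for centrioles and -0.011 for ribosomal proteins. FPKM of at least 5 in 3 cells gave 0.097 for cumulus markers and -1.24 for maternally expressed imprinted genes. FPKM of at least 1 in 3 of the 6 embryos gave 0.62 for cumulus markers, 1.18 for sperm transcripts, 0.54 for RNA decay, -1.24 for maternally expressed imprinted genes, -0.22 for ribosomal proteins and 1.04 for noncoding RNA. Leaving out 1 embryo gave -0.38 to -0.16 for oocyte markers, -0.0054 to 0.075 for cumulus markers, 0.030 to 0.43 for sperm transcripts, -0.21 to 0.15 for fertilization genes, 0.045 to 0.31 for mRNA storage, 0.097 to 0.42 for DNA methylation, 0.22 to 0.41 for replication, 0.50 to 0.91 for centrioles, -0.048 to 0 for ribosomal proteins, -0.097 to 0.080 for the proteasome, -0.021 to 0.38 for nuclear import and 0 to 0.16 for lipid genes. The scalings remove the all-gene shift by construction. The cause of the other moves was not tested. With 3 embryos a group, a rank test of 1 gene cannot fall below 0.1, and reads without molecular identifiers limit what low FPKM values can show.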

Other observations

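Presence and absence gave a short list. With at least 1 FPKM in all 3 embryos of a group and 0 in all 3 of the other, 6 genes met the rule for IVF embryos and none for PA embryos. Beside IFNGR1 and ssc-mir-424 these were BRD8, a bromodomain subunit of the NuA4 acetyltransferase complex, at 2.23, 2.36 and 3.74 FPKM, CLUL1, a clusterin-like protein, at 2.09, 6.17 and 6.43 FPKM, and ENSSSCG00000031093 and ENSSSCG00000004410, which have no symbol, at 1.68, 3.66 and 8.33 FPKM and 4.19, 13.1 and 1.33 FPKM. All 6 were listed at 0 in each PA embryo. BRD8 overlaps KIF20A, and ENSSSCG00000031093 overlaps RSRP1, SYF2 and TMEM50A. At 5 FPKM no gene met the rule in either direction. The demand for exactly 0 left out SNRPA, with about 0, 1 and 1 reads in IVF against 353, 480 and 205 in PA. It also left out TMEM200C, with about 0, 3 and 0 reads in IVF against 395, 579 and 614 in PA. These counts are on the deposited scale, where 79.0% of the genes without overlap were higher in IVF.

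The median log2 difference lay between 0.12 on chromosome 12 and 0.45 on chromosome 15 over the 18 autosomes, and the 286 genes tested on the X chromosome had a median of 0.26, beside 0.24 over all genes. On chromosome 15, 20.2% of 351 genes were higher in all IVF embryos and 1.99% in all PA embryos, and on chromosome 12, 13.3% and 7.03% of 384 genes. The difference between chromosomes was not tested.

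Other microRNA genes were singled out after their values were seen. The gene ssc-mir-7144, inside ARGLU1, was listed at 46.7, 10.6 and 34.9 FPKM in IVF against 0.457, 0 and 0 FPKM in PA (log2 difference 4.58, limma, unadjusted p = 0.0219). The gene ssc-mir-9818, inside TECTA, was listed at 605, 331 and 391 FPKM in IVF against 5.37, 137 and 209 FPKM in PA (2.91, unadjusted p = 0.109). Neither passed the adjusted threshold. Their FPKM can include reads of the genes around them.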
